A study of Bos taurus with 9 samples.

Results

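The genes described here are 10 that mark granulosa cells of the ovarian follicle or carry out steroid synthesis: NR5A1, NR5A2, FOXL2, FSHR, INHA, STAR, CYP11A1, HSD3B1, CYP17A1 and CYP19A1. They were taken by symbol from a deposited table of 22127 bovine genes, and each symbol matched 1 gene. The table covers 9 RNA sequencing libraries, each from a pool of 9 to 11 blastocysts frozen on day 8. Before fertilisation the oocytes had been matured for 24 hours, inside their cumulus cells, in 1 of 3 media, each represented by 3 libraries. Glucose was 5.5 mM in the control medium and 2.75 mM in the low glucose medium. The last medium combined 2.75 mM glucose with 1.8 mM BHB, an abbreviation the labels do not spell out. All media, that of the controls included, also held serum, pyruvate, FSH and estradiol. In vitro fertilisation and the embryo culture that followed, under 20% O2, were shared by all groups. The design asks if blastocyst transcripts differ by the medium in which the oocyte matured.

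Granulosa cells line the follicle, and those closest to the oocyte form its cumulus. FSH, acting through its receptor and cyclic AMP, drives them to make estradiol and inhibin. Steroid synthesis starts when STAR brings cholesterol into the mitochondrion, where CYP11A1 cuts the side chain to give pregnenolone. HSD3B1 turns pregnenolone into progesterone, CYP17A1 makes androgens in the neighbouring theca cells, and CYP19A1, the aromatase, turns androgens into estrogens. NR5A1 (steroidogenic factor 1) and NR5A2 (liver receptor homolog 1) are nuclear receptors that bind closely similar DNA sites in the promoters of such genes. NR5A2 is also known as a regulator of the early embryo itself. FOXL2 is a forkhead factor that maintains granulosa identity, and placental cells also use steroid enzymes, so the genes are not exclusive to the follicle.

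Libraries held 55611205 to 75178898 estimated counts, and all 10 genes passed the filter on low counts, which kept 16469 genes. Of the 10 genes, 9 had counts in every library, and INHA was at 0 in 4 of the 9 libraries. Blastocyst markers were present in all groups: POU5F1, the pluripotency factor, was measured at 954 ± 60.5 CPM in control, 1002 ± 99.2 CPM in low glucose medium and 1056 ± 35.1 CPM after BHB (SD, n = 3 per medium). CPM here is the count scaled to library size with TMM factors. CDX2, the trophectoderm factor, was measured at 132 ± 38.4, 154 ± 23.1 and 154 ± 28.8 CPM. Separate cultures for the replicates are not stated in the labels. The p-values therefore cover the spread between these samples alone, and that spread may be technical. The fitted comparisons of each low glucose medium with control use the same 3 control libraries.

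**Figure D1:**
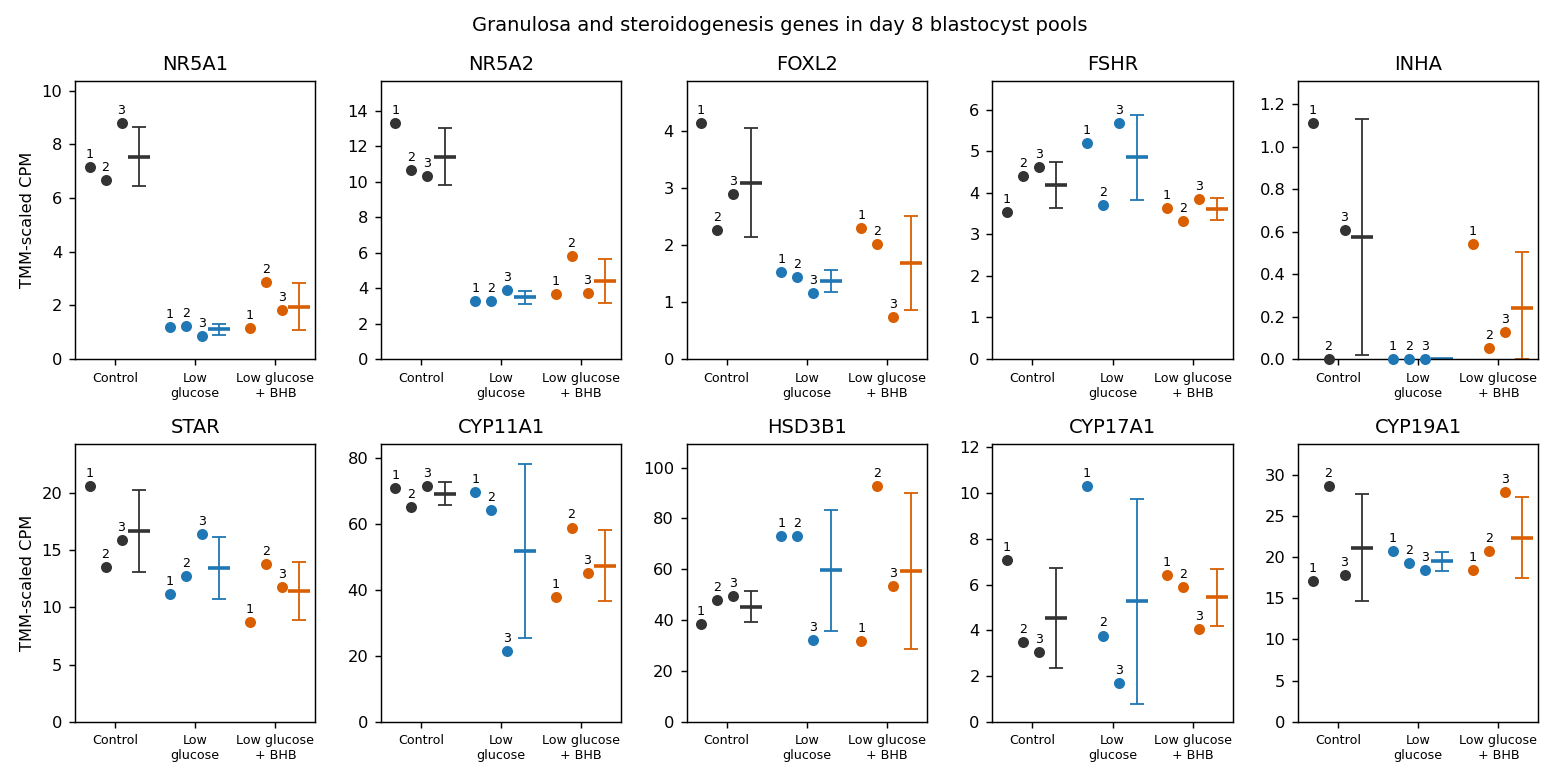
TMM-scaled CPM (vertical axis, linear from 0) of each of the 10 genes in the 9 libraries, grouped by maturation medium. Points are libraries with their replicate number, and the bar beside them is the mean with its SD over 3 libraries. NR5A1 and NR5A2 stand higher in all 3 control libraries than in any other library, while the enzyme genes of the lower row overlap, except that CYP11A1 with BHB lies below control throughout.

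The nuclear receptor genes were lower in blastocysts from both low glucose media, while none of the 5 genes for cholesterol transport and steroid enzymes passed the test. In low glucose, NR5A1 fell 6.81-fold and NR5A2 3.27-fold. With BHB, the same pair fell 3.85-fold and 2.59-fold. In edgeR's quasi-likelihood test with Benjamini-Hochberg adjustment, 2 of the 10 genes were lower in low glucose at an adjusted p under 0.05, where 2.02% of all tested genes were. With BHB, 2 of the 10 were lower against 1.38% of all tested genes, and none of the 10 was higher in either. The median log2 fold change of the 10 genes was -0.36 in low glucose and -0.55 with BHB, beside 0.02 and 0.00956 over all tested genes. Both the 10 genes and the gene lists described below were chosen with earlier results of these data known. Their counts and medians are therefore a description, and the shares of all tested genes are no independent yardstick for them. In pooled embryos, fewer cells of a type and less RNA per cell cannot be told apart.

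NR5A1 was measured at 7.14, 6.69 and 8.78 CPM in control replicates 1 to 3. In low glucose it was at 1.21, 1.24 and 0.865 CPM, and with BHB at 1.15, 2.89 and 1.82 CPM. Every control library was thus above every library of the other media, and the low glucose libraries lay within a narrow band. The log2 fold change against control was -2.77 in low glucose (SE 0.359, 95% interval -3.55 to -1.99, edgeR adjusted p = 0.00185). With BHB it was -1.95 (SE 0.347, interval -2.70 to -1.19, edgeR adjusted p = 0.0164). The low glucose call was kept in each of the 9 fits that left out a library, with values of -2.85 to -2.62. The call with BHB was lost without control replicate 3 (-1.80, edgeR adjusted p = 0.0916) or BHB replicate 3 (-1.90, adjusted p = 0.0895), and without BHB replicate 2, the highest of its medium, the value was -2.35.

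NR5A2 had 13.3, 10.7 and 10.3 CPM in the control libraries, 3.25, 3.29 and 3.92 in those of low glucose, and 3.66, 5.82 and 3.75 with BHB. The lowest control library again exceeded the highest library of either other medium. In low glucose the log2 fold change was -1.71 (SE 0.246, 95% interval -2.25 to -1.18, edgeR adjusted p = 0.00309), and it stayed between -1.80 and -1.59 and past the threshold whichever library was left out. With BHB it was -1.37 (SE 0.243, interval -1.90 to -0.84, edgeR adjusted p = 0.0160). That call was lost without control replicate 1 (-1.25, adjusted p = 0.0716), control replicate 3 (-1.42, adjusted p = 0.0571), BHB replicate 1 (-1.25, adjusted p = 0.0668) or BHB replicate 3 (-1.27, adjusted p = 0.0892). The number of the 10 genes called with BHB was therefore 1 when replicate 1 of control or of BHB was left out, and 0 when replicate 3 of either was.

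Some markers of theca and stroma moved with these falls. That list summed to 584 to 1155 CPM in control, 206 to 403 in low glucose and 215 to 427 with BHB. Of its 11 tested genes, 5 were lower in low glucose and 6 with BHB, and none of the 12 genes in the table was at 0 throughout a group. Others of the list, named after their values were seen, were not called. They include the largest parts of the sum, given here for control, low glucose and with BHB in turn. COL1A2 was at 211 ± 85.5, 83.7 ± 18.3 and 86.3 ± 35.3 CPM, and COL1A1 at 177 ± 127, 108 ± 47.1 and 95.2 ± 50.5 CPM. ACTA2 was at 76.8 ± 44.1, 52.5 ± 42.4 and 75.5 ± 38.0 CPM in control, low glucose and with BHB. INSL3 was near the floor, at 0.330, 0.151 and 0.0527 CPM. CYP17A1, the theca enzyme gene among the 10, was not called either. Genes of other granulosa functions, described further on, summed to 408 to 523 CPM in control, 201 to 284 CPM in low glucose and 214 to 256 CPM with BHB. The largest single part of that sum was SERPINE2, named after its values were seen, at 244 ± 46.4, 153 ± 26.4 and 147 ± 3.58 CPM. Leukocyte markers summed to 7.33 to 8.97, 4.63 to 12.3 and 4.17 to 10.6 CPM, with none of 4 tested genes called in either comparison. The part of these other cell types in the falls of NR5A1 and NR5A2 was not tested.

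FOXL2 was measured at 4.13, 2.26 and 2.90 CPM in control, 1.53, 1.44 and 1.15 in low glucose and 2.30, 2.02 and 0.745 CPM with BHB. The low glucose libraries lay below all controls, whereas BHB replicate 1 reached the level of control replicate 2. Neither difference passed: the log2 fold change was -1.17 in low glucose (SE 0.431, 95% interval -2.11 to -0.23, edgeR adjusted p = 0.382) and -0.87 with BHB (SE 0.428, interval -1.80 to 0.06, edgeR adjusted p = 0.740). Without control replicate 1, the highest library, the low glucose value was -0.91. Counting only whether libraries overlap, 3 of the 10 genes (NR5A1, NR5A2 and FOXL2) had every low glucose library below every control, where 8.85% of all tested genes did. With BHB these were NR5A1, NR5A2 and CYP11A1, where 8.56% of all tested genes did.

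FSHR, the receptor for FSH, had 3.55, 4.39 and 4.61 CPM in control, 5.19, 3.70 and 5.67 in low glucose, and 3.63, 3.32 and 3.85 CPM with BHB. The 3 groups overlapped. Its log2 difference from control was 0.21 in low glucose (95% interval -0.33 to 0.76) and -0.22 with BHB (interval -0.76 to 0.33), so that changes of 1 log2 unit lie outside both intervals. LHCGR, the receptor for LH, was low in every group, at 0.313 ± 0.0684 CPM in control, 0.261 ± 0.105 CPM in low glucose medium and 0.593 ± 0.280 CPM after BHB (SD, n = 3), and passed in neither comparison.

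INHA, which encodes the alpha subunit of inhibin, was close to the detection limit. Its counts were 66, 0 and 41 in the control libraries, 0 in each low glucose library, and 33, 4 and 7 with BHB. The medium with no counts had 3 of 3 libraries at 0, yet 1 control library was at 0 as well, so the groups touched. With the 3 low glucose libraries together set at a floor of 3 counts, their level was at least 35.1-fold lower than control, or at least 19.2-fold lower without control replicate 1, which held most of the counts. The difference did not pass in edgeR (adjusted p = 0.174) and did in DESeq2 (adjusted p = 0.00282). With BHB the 44 counts against 107 in control gave a ratio of 0.430 of scaled counts (exact 95% counting interval 0.295 to 0.616). The interval and the floor cover counting error only, and the fit, which also covers the spread between libraries, gave an edgeR adjusted p of 0.953.

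Among the genes of the steroid pathway, STAR had 20.6, 13.6 and 15.9 CPM in control, 11.2, 12.8 and 16.4 in low glucose and 8.74, 13.8 and 11.8 CPM with BHB. The ranges of all 3 media overlapped, and the highest library was a control. The log2 fold change was -0.31 in low glucose (95% interval -0.80 to 0.18, edgeR adjusted p = 0.984) and -0.54 with BHB (interval -1.03 to -0.05, edgeR adjusted p = 0.583). Without control replicate 1, the highest library, these became -0.13 and -0.36. STAR, CYP17A1 and CYP19A1 had estimated counts that were not whole in 7, 9 and 9 of 9 libraries, at a tolerance of 1e-06, so part of their reads was shared with other transcripts and their values are less certain. For the other 7 genes all values were whole.

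CYP11A1, the side-chain cleavage enzyme gene, stood at 70.9, 65.3 and 71.6 CPM in control. It was at 69.7, 64.2 and 21.5 in low glucose and at 37.8, 59.0 and 45.3 CPM with BHB. In low glucose 2 libraries lay at or just below the control level and replicate 3 far below it, while with BHB all 3 libraries were below every control. Neither difference passed, at -0.42 (SE 0.326, 95% interval -1.13 to 0.29, edgeR adjusted p = 0.995) and -0.55 (SE 0.326, interval -1.26 to 0.16, edgeR adjusted p = 0.862). Without low glucose replicate 3 the low glucose value was -0.05, so that difference rested on 1 library.

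HSD3B1 was measured at 38.4, 48.0 and 49.4 CPM in control, 73.2, 73.2 and 32.1 in low glucose, and 31.9, 92.7 and 53.4 CPM with BHB. Its spread was wide in both low glucose media, which reached above and below the controls. The log2 difference was 0.39 in each (95% interval -0.38 to 1.16 in both). Leaving out low glucose replicate 3 raised the low glucose value to 0.69, and leaving out BHB replicate 2 turned the BHB value to -0.09.

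CYP17A1 had 7.06, 3.50 and 3.06 CPM in control, 10.3, 3.77 and 1.71 in low glucose, and 6.41, 5.88 and 4.04 CPM with BHB. The SD in low glucose, 4.49 CPM, was close to the mean of 5.26, and the log2 difference of 0.22 (95% interval -0.94 to 1.37) became -0.70 without low glucose replicate 1. With BHB the difference was 0.26 (interval -0.89 to 1.42). CYP19A1 had the smallest differences from control of the 10 genes. It was measured at 17.1, 28.6 and 17.9 CPM in control, 20.7, 19.3 and 18.4 in low glucose, and 18.4, 20.7 and 27.9 CPM with BHB. The aromatase gene differed from control by -0.12 in low glucose (95% interval -0.59 to 0.35) and 0.08 with BHB (interval -0.39 to 0.55), so that changes of 1 log2 unit lie outside both intervals.

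**Figure D2:**
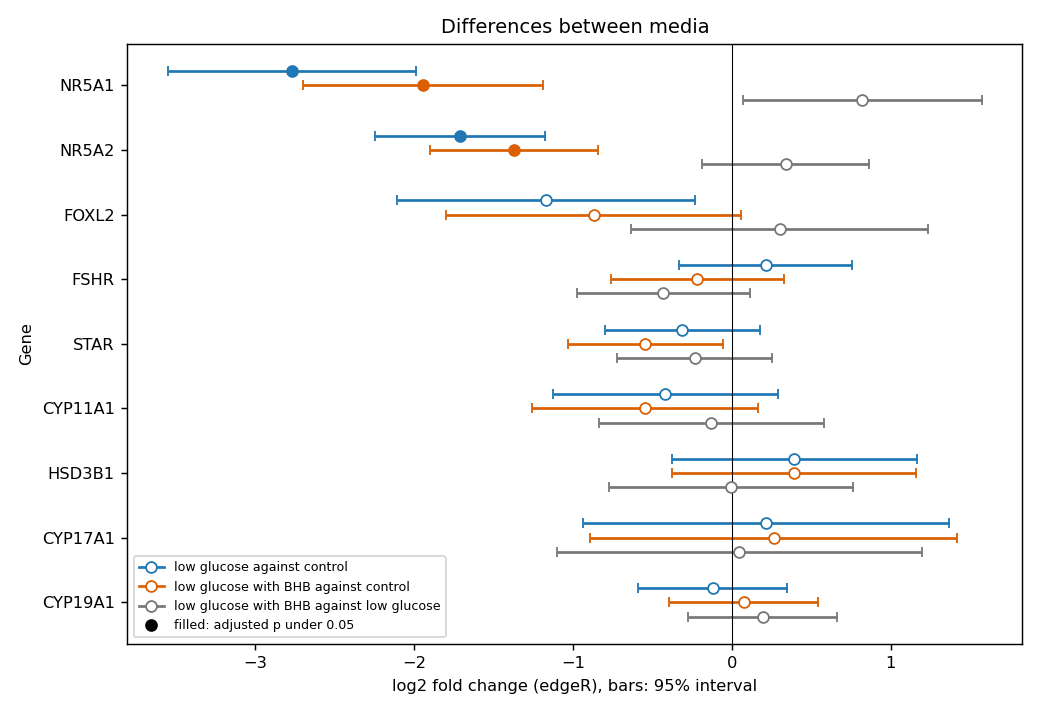
Log2 fold changes from edgeR (horizontal axis) with 95% intervals for 9 of the 10 genes in the 3 comparisons, with filled points for an adjusted p under 0.05. INHA is left out because low glucose had no counts. Only NR5A1 and NR5A2 carry filled points, in both comparisons with control and in neither case between the low glucose media.

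BHB in the low glucose medium was compared with low glucose alone. NR5A1 was 1.95 ± 0.877 CPM with BHB and 1.10 ± 0.207 without it (SD, n = 3 each), and NR5A2 was 4.41 ± 1.22 and 3.49 ± 0.373. The differences were 0.82 for NR5A1 (95% interval 0.07 to 1.57, edgeR adjusted p = 1.00) and 0.34 for NR5A2 (interval -0.19 to 0.86). Neither passed after adjustment, and BHB replicate 1, at 1.15 CPM of NR5A1, lay among the low glucose libraries. FSHR differed by -0.43 (interval -0.98 to 0.11), and was lower with BHB in each of the 3 pairs of libraries with the same replicate number. With that number as a block it differed by -0.42 (edgeR adjusted p = 1.00), and no member was called. Without the block, FOXL2 differed by 0.30 (SE 0.429), CYP11A1 by -0.13 (SE 0.326) and HSD3B1 by -0.00382 (SE 0.353). INHA had 44 counts with BHB and 0 without, which is at least 15.1-fold higher with the same floor, or at least 5.55-fold without BHB replicate 1. Its p before adjustment in edgeR, a model across all genes, was 0.0143, and its adjusted p was above the threshold. It was the 1 gene of the 10 with every BHB library above every low glucose library, where 2.96% of all tested genes were.

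By edgeR's adjusted p, 0 of the 10 genes and 0% of all tested genes were called between these media. At an unadjusted edgeR p under 0.05 there were 2 of the 10 genes, NR5A1 and INHA, and 270 of all 16469 tested genes. DESeq2 called 2 genes in all and limma-voom 0, none of them among the 10.

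Within a medium, several of the genes had their lowest or highest library in common. Low glucose replicate 3 was the lowest library of its medium for NR5A1, FOXL2, CYP11A1, HSD3B1, CYP17A1 and CYP19A1, but the highest for STAR, NR5A2 and FSHR. BHB replicate 2 was the highest of its medium for NR5A1, NR5A2, STAR, CYP11A1 and HSD3B1. As a description over 9 libraries, without a test, deviations of log2 CPM from the means of each medium correlated at 0.914 between HSD3B1 and NR5A1, the highest of all pairs, and at 0.847 between HSD3B1 and CYP11A1. Over the libraries as they are, HSD3B1 and NR5A1 had a Pearson r of 0.00287 and a Spearman rho of 0.217: the controls combined the highest NR5A1 with a middle level of HSD3B1. NR5A1 and NR5A2 had a Pearson r of 0.955 and a Spearman rho of 0.733 over the 9 libraries, and 0.480 for the deviations. Each point is a library, so depth and the pool of embryos are shared by both genes of a pair.

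**Figure D3:**
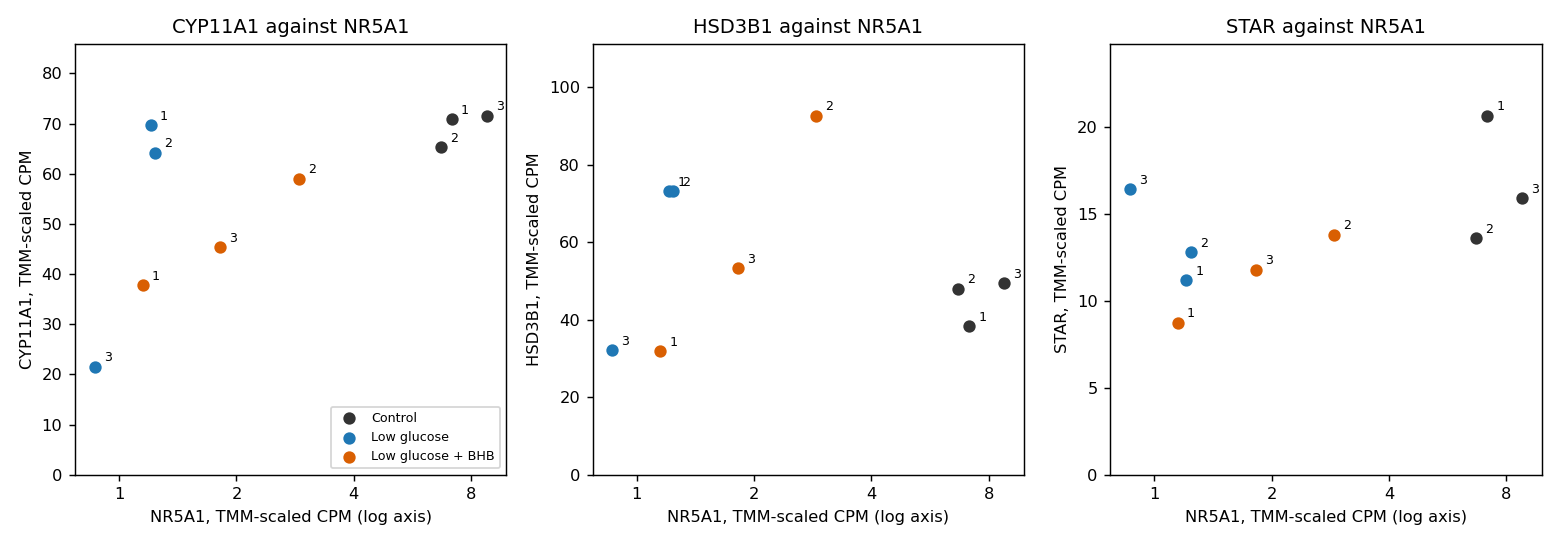
Levels of CYP11A1, HSD3B1 and STAR (vertical axes, TMM-scaled CPM from 0) against NR5A1 (horizontal axis, TMM-scaled CPM on a log axis) in the 9 libraries, numbered by replicate. Within each low glucose medium the library with the least NR5A1 also had the least HSD3B1 and CYP11A1, while the controls stand at the right without higher HSD3B1.

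The genes whose log2 CPM was most like that of NR5A1 over the 9 libraries were GSTA1, a glutathione transferase gene (Pearson r 0.992), the integrin gene ITGAV (0.982) and MX1, an antiviral GTPase gene (0.982). For NR5A2 they were DHX58 (0.987), USP18 (0.986) and DDX58 (0.985), genes known for the response to interferon. All 6 of these genes fell in both low glucose media. These r values largely carry the gap between control and the other media, since the controls lie apart for each gene. Among those most like FOXL2 were FUT11 (0.943) and RAI14 (0.938), neither of which passed in either comparison. The genes nearest to the steroid pathway were others again: HEATR3, CADM4 and CTNNA2 for STAR (0.939, 0.928 and 0.921), L3MBTL3, NAV3 and YIPF7 for CYP11A1 (0.968, 0.966 and 0.961), and CPNE3, CCL22 and KHDRBS1 for HSD3B1 (0.980, 0.973 and 0.967). CYP17A1 was nearest to SCFD2, PTPRG and PLSCR2 (0.974, 0.968 and 0.963) and CYP19A1 to CENPI, SOD1 and ITLN2 (0.926, 0.886 and 0.876). FSHR was nearest to CCDC115, SLC17A7 and LAMTOR5 (0.938, 0.936 and 0.925), and INHA to PLD2, ZC2HC1B and LACC1 (0.946, 0.927 and 0.918). None of the genes nearest to these 7 passed against control, and no gene was among the nearest of more than 1 of the 10. All r values in this paragraph are the highest picked from the tested genes with a symbol, over only 9 libraries. Such a pick gives high values by itself, and no r was tested.

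Upstream of the enzymes, 2 of 12 genes of cholesterol delivery were lower in low glucose and 1 with BHB, with list medians of -0.00623 and -0.06. TSPO, the translocator protein gene of the outer mitochondrial membrane, fell from 43.6 ± 3.84 CPM in control to 18.8 ± 1.83 CPM in low glucose medium and 21.7 ± 5.42 CPM after BHB (SD, n = 3). Its log2 fold change was -1.21 (SE 0.185, edgeR adjusted p = 0.00437) and -1.01 (SE 0.184, edgeR adjusted p = 0.0185), and the BHB call was lost without BHB replicate 3 (-1.09) or either of control replicates 1 (-1.01) and 3 (-0.92). LIPA, the lysosomal lipase gene that frees cholesterol from its esters, fell in low glucose by 0.98 on the log2 scale (SE 0.177, edgeR adjusted p = 0.0109), a call lost without control replicate 2 (-0.96), low glucose replicate 2 (-0.95) or low glucose replicate 3 (-0.93). With BHB LIPA stood at -0.71 (edgeR adjusted p = 0.0882). The count for this list was accordingly 1 in low glucose without any of those 3 libraries and 0 with BHB without BHB replicate 3 or either of control replicates 1 and 3.

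The lipoprotein receptor gene SCARB1 stood at -0.28 in low glucose and -0.29 with BHB, and STARD3, a relative of STAR, at 0.04 and -0.07. Neither passed. Genes that hand electrons to the enzymes, and other enzymes of the pathway, had 0 of 23 tested genes called in edgeR in either comparison, and their list medians were -0.000906 and 0.02. FDX1, the ferredoxin that serves CYP11A1, stood at 0.10 in low glucose and 0.06 with BHB, its reductase FDXR at 0.04 and 0.05, and POR, which serves CYP17A1 and CYP19A1, at -0.09 and -0.07. HSD17B1, which makes estradiol from estrone, was measured at 0.129 ± 0.223 CPM in control, 0.0944 ± 0.0996 CPM in low glucose and 0.0866 ± 0.0906 CPM with BHB, with SDs of about the size of the means. HSD17B2 and HSD17B3 had no counts in any library.

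Among 21 tested regulators and hormone receptors, 3 were lower in each comparison: NR2F1, GATA4 and FOXO1. The list medians were -0.34 in low glucose and -0.22 with BHB. NR2F1, an orphan nuclear receptor gene, fell from 8.04 ± 0.294 CPM to 1.17 ± 0.266 in low glucose and 1.75 ± 0.311 with BHB, at log2 fold changes of -2.78 (SE 0.284, edgeR adjusted p = 0.000728) and -2.20 (SE 0.277, edgeR adjusted p = 0.00325). GATA4, a partner of NR5A1 on steroid promoters and also a hypoblast factor, was measured at 41.7 ± 6.39, 15.2 ± 3.70 and 19.1 ± 6.64 CPM. GATA6, its relative in the hypoblast, was measured at 565 ± 90.7, 633 ± 110 and 689 ± 50.7 CPM and did not pass. FOXO1, which FSH signalling restrains in granulosa cells, was at 14.7 ± 6.42, 2.00 ± 0.507 and 4.11 ± 0.938 CPM. With BHB the FOXO1 call was lost without control replicate 1 (-1.47), control replicate 3 (-1.83) or any BHB replicate (-1.83, -1.68 and -2.01). The GATA4 call with BHB, at -1.13 (edgeR adjusted p = 0.0432), was lost without BHB replicate 1 (-0.94) or 3 (-1.05), low glucose replicate 3 (-1.13) or any control replicate (-1.22, -1.15 and -0.98), and in a fit of only the 6 libraries compared (-1.12). The list count with BHB was 1 when control replicate 1 or 3, or BHB replicate 1 or 3, was left out. ESR2, the estrogen receptor beta gene, stood at -1.16 and -1.88 and did not pass.

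Of 18 genes of gonadotropin and cyclic AMP signalling, 2 were lower in low glucose and 1 with BHB, with medians of -0.22 and -0.07. PRKAR2B, a regulatory subunit of protein kinase A that FSH is known to induce, fell from 13.8 ± 3.54 CPM to 3.23 ± 0.328 in low glucose (-2.10, SE 0.377, edgeR adjusted p = 0.0108) and 4.00 ± 2.03 with BHB (-1.79, SE 0.372, edgeR adjusted p = 0.0352). PRKACB, a catalytic subunit, fell from 17.7 ± 1.34 to 7.95 ± 0.830 CPM in low glucose (-1.15, SE 0.235, edgeR adjusted p = 0.0235) and stood at 9.85 ± 3.28 CPM with BHB (-0.84, edgeR adjusted p = 0.153). These calls were not firm. That of PRKACB was lost without any single control or low glucose library (-1.21 to -1.05). In low glucose that of PRKAR2B was lost without control replicate 3 (-1.98) or low glucose replicate 2 (-2.03) or 3 (-2.08). With BHB it was lost without control replicate 2 (-1.67) or 3 (-1.67), low glucose replicate 1 (-1.78) or 2 (-1.78) or BHB replicate 3 (-1.93), and with only the 6 libraries compared (-1.78). The list counts were then 0 or 1 in low glucose and 0 with BHB.

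Other granulosa genes had 7 of 21 lower in low glucose and 5 with BHB, with list medians of -0.86 and -0.82. The list did not fall as a whole. Some genes, named after their values were seen, had higher means than control in both media, and none passed. In control, low glucose and with BHB, WNT4 was at 0.163 ± 0.0416, 0.614 ± 0.0735 and 0.384 ± 0.115 CPM. In the same order NPPC was at 0.334, 0.585 and 0.728 CPM, AMHR2 at 0.811, 0.923 and 1.10 and IRX3 at 0.787, 1.07 and 0.973. BMPR1B, a receptor for BMP and GDF signals of the oocyte, fell from 9.14 ± 2.30 CPM to 1.07 ± 0.279 and 1.94 ± 0.455, at -3.09 (SE 0.322, edgeR adjusted p = 0.000728) and -2.23 (SE 0.309, edgeR adjusted p = 0.00433). RUNX2, a runt factor known in luteinising granulosa cells, fell from 6.30 ± 2.44 CPM to 0.424 ± 0.0438 and 0.914 ± 0.470, at -3.89 (SE 0.498, edgeR adjusted p = 0.00178) and -2.78 (SE 0.469, edgeR adjusted p = 0.0122). CDH2, the N-cadherin gene, fell from 73.7 ± 9.09 CPM to 15.4 ± 3.69 and 17.5 ± 8.32, and GJA1, the gene of the gap junction protein connexin 43, from 39.0 ± 7.83 to 8.22 ± 3.08 and 8.67 ± 4.55. The remaining falls, chosen after their values were seen, were RUNX1 (-0.96), IRX5 (-1.67) and SERPINE2 (-0.67) in low glucose and SERPINE2 (-0.73) with BHB. With BHB the RUNX2 call was lost without BHB replicate 3 (-2.93) or either of control replicates 1 (-2.62) and 3 (-2.58), and that of GJA1 without control replicate 3 (-1.98) or BHB replicate 3 (-2.11). The count in low glucose was 4 without control replicate 1, control replicate 3 or low glucose replicate 3. With BHB it was 3 without control replicate 1 and 2 without control replicate 3 or BHB replicate 3, while DESeq2 gave 8.

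Inhibin and activin relatives of INHA did not pass in the edgeR fit of all 9 libraries. INHBB, the beta B subunit, was measured at 36.1 ± 8.78 CPM in control, 18.6 ± 6.51 CPM in low glucose and 18.4 ± 0.741 CPM with BHB, at -0.95 (SE 0.250, edgeR adjusted p = 0.0931) and -0.97 (SE 0.250, edgeR adjusted p = 0.110). INHBA, the beta A subunit, was at 6.08 ± 1.11, 3.35 ± 0.961 and 3.18 ± 0.816 CPM. FST, the activin-binding follistatin, was at 15.9 ± 6.59, 2.08 ± 0.464 and 3.71 ± 4.24 CPM, at -2.93 (SE 0.797, edgeR adjusted p = 0.111) and -2.10 (SE 0.768, edgeR adjusted p = 0.422). Without BHB replicate 1 or 3 FST passed in low glucose (-2.93 each), as it did in a fit of only the 6 libraries compared (-2.93). INHBB passed in DESeq2 in both comparisons (adjusted p = 0.00715 and 0.00729). It also passed in low glucose with the replicate number as a block (-0.98, edgeR adjusted p = 0.0455), and with BHB without low glucose replicate 3 (-0.97) or with only the 6 libraries compared (-0.96). AMH, the anti-Müllerian hormone gene, was low in all media, at 1.12 ± 0.356, 0.523 ± 0.167 and 0.579 ± 0.449 CPM.

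**Figure D4:**
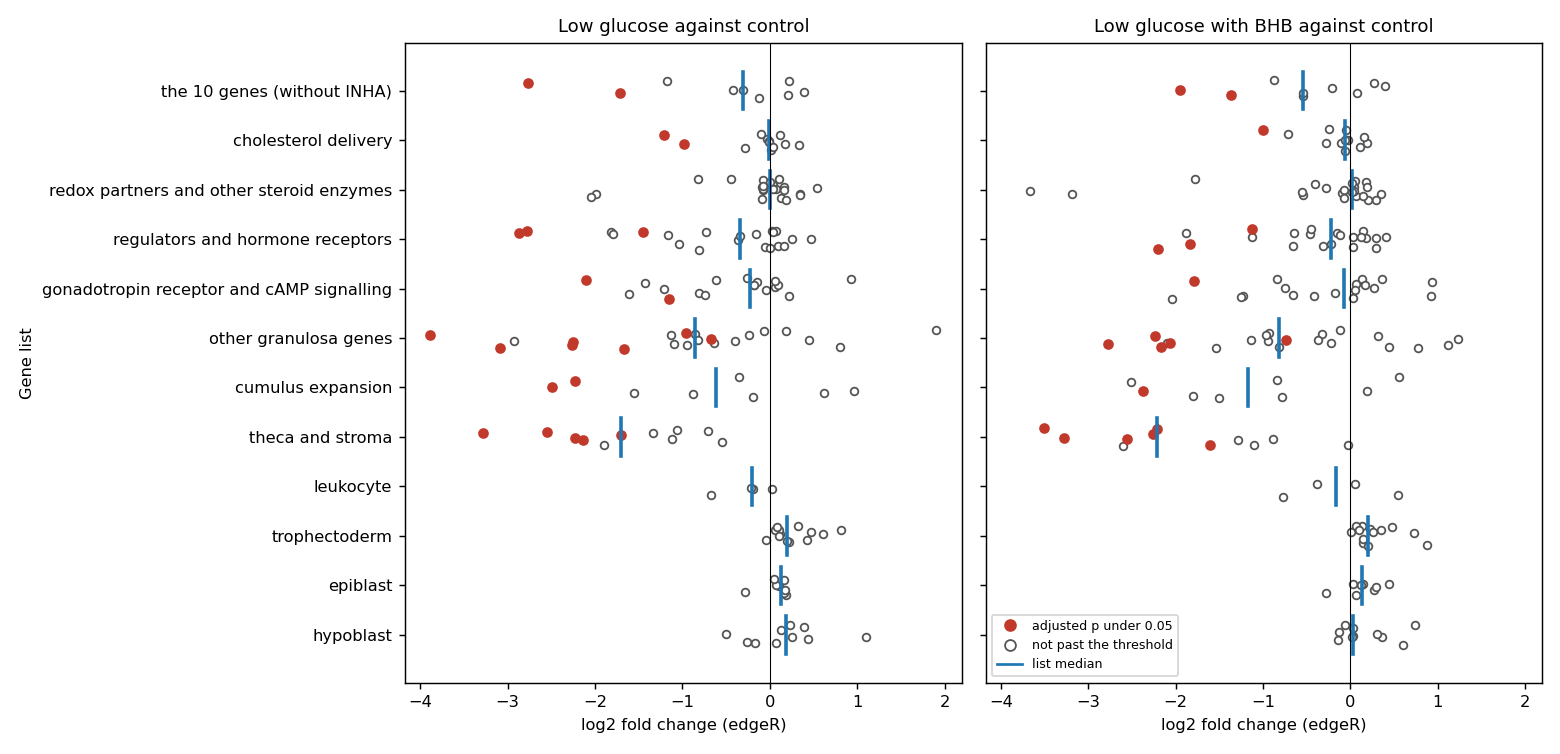
Log2 fold changes from edgeR (horizontal axes) of the tested genes in each list, for low glucose against control (left) and low glucose with BHB against control (right). Each point is a gene, filled where its adjusted p was under 0.05, the vertical bar is the list median, and the first row leaves out INHA. Filled points lie only to the left of 0, and none appears among the steroid enzymes or the leukocyte, trophectoderm, epiblast and hypoblast lists. GATA4, also a hypoblast factor, is shown with the regulators.

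Cumulus expansion genes, which the cumulus switches on during maturation, had 2 of 8 tested genes lower in low glucose, GREM1 and CD44. With BHB 1 was lower, CD44, and the list medians were -0.61 and -1.17. Those medians rest in part on genes at low levels, named after their values were seen. In control, low glucose and with BHB, HAS2 was at 1.04, 0.811 and 0.295 CPM and HAPLN1 at 0.338, 0.185 and 0.195. In the same order TNFAIP6 was at 0.403, 0.352 and 0.459 CPM and EREG at 0.166, 0.326 and 0.0573. GREM1, the BMP antagonist gremlin, fell from 1.86 ± 0.464 to 0.329 ± 0.108 CPM in low glucose (-2.50, SE 0.536, edgeR adjusted p = 0.0304). That call was lost without control replicate 2 (-2.34) or 3 (-2.43), without any low glucose replicate (-2.53, -2.25 and -2.72) and in limma-voom (-2.54), which leaves a count of 1. CD44, the hyaluronan receptor, fell from 9.62 ± 3.64 to 2.06 ± 0.497 and 1.85 ± 0.0950 CPM. The summed level of this list ran from 371 to 593 CPM in control, 420 to 1027 CPM in low glucose and 475 to 934 CPM with BHB. Most of that sum was PTGS2, the prostaglandin synthase gene, named after its values were seen, at 451 ± 94.6, 694 ± 300 and 666 ± 237 CPM, which did not pass (0.62 and 0.56). AREG had no counts in control or with BHB.

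Theca and stroma markers had 5 of 11 tested genes lower in low glucose and 6 with BHB, with list medians of -1.70 and -2.21. PDGFRB, a receptor of mesenchymal cells, was at -2.22 (SE 0.342, edgeR adjusted p = 0.00461) in low glucose and -2.26 (SE 0.342, edgeR adjusted p = 0.00673) with BHB. The proteoglycan genes LUM, DCN and VCAN fell in both media, LUM the most, at -3.28 and -3.50. Without low glucose replicate 3 the low glucose count was 3, with VCAN among the calls lost (-2.27), and DESeq2 gave 8. Embryo lineage lists had no gene called in edgeR: 0 of 13 trophectoderm genes, with medians of 0.20 in both comparisons, 0 of 8 epiblast genes (0.13 and 0.14) and 0 of 10 hypoblast genes (0.18 and 0.03). The hypoblast list did not hold GATA4, which was counted among the regulators and was lower in low glucose (-1.45) and, less firmly, with BHB (-1.13). The trophectoderm genes summed to 14425 to 19552 CPM in control, 17362 to 20250 CPM in low glucose and 17940 to 22541 CPM with BHB.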

How the data were processed

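RNA was sequenced from 9 pools of bovine blastocysts after poly(A) enrichment, per the labels' protocols. The authors deposited estimated counts per gene. The tools fastp, kallisto and DESeq2 and the build bosTau9 are named per the submitters' processing notes, without versions. Of the values, 19.2% were not whole, as kallisto divides reads between similar transcripts. Symbols came from the table (17706) or a RefSeq table of assembly ARS-UCD2.0 (323), and 4098 genes had none. Where a symbol had several rows, the row with more counts was used. No sequences or coordinates are given, and promoter motifs were not analysed here, nor were CYP21A2, IFNT and SOX2.

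Analysis used edgeR 4.0.16 (R 4.3.3) on rounded estimated counts: filterByExpr with the groups (minimum count 10, total 15; 16469 genes kept, 5658 not), TMM factors, and 1 quasi-likelihood fit with a mean for each of 3 groups over all 9 libraries. Tests are two-sided with Benjamini-Hochberg adjustment over all tested genes at 0.05. The common biological coefficient of variation was 0.322. CPM are TMM-scaled, with the SD over libraries. Likeness was computed on log2 CPM (prior count 2). Total counts per library, 55611205 to 75178898, set the counting precision. Every pair of replicates differed by more than sampling noise (smallest chi-square per degree of freedom 39.9).

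The members and gene lists were chosen with earlier results of these data known. Named genes are all 10 members, up to 4 called genes of each list per comparison by smallest p, a set of landmark genes, and the 3 genes most like each member; 1 landmark gene and 1 gene like FOXL2 are not reported here. Steps were tested on simulated data of 16469 genes: 2-fold changes were recovered at 49% for low glucose versus control, 57% for BHB versus control and 59% for BHB versus low glucose. Those of 4-fold were recovered at 79%, 75% and 76%, and 6.57%, 5.71% and 4.93% of calls were false. The simulation changed 200 genes, as many up as down, at the spread estimated from the data. Changes mostly in 1 direction, as seen against control, were not simulated.

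Deviations of libraries with the same replicate number correlated at 0.131, 0.0491 and 0.0417 between low glucose and control and at 0.144, 0.0626 and 0.0458 between BHB and control. Only replicate 1 was over the cutoff of 0.1 there, so these values do not settle if the numbers pair those libraries. Between the low glucose media they correlated at 0.115, 0.243 and 0.102, each over 0.1. The numbers were taken to pair the samples there, as judged from the data alone and not from labels. The intervals given for that comparison are from the fit without a block. Alternatives were RLE factors, no filter, a mean count of at least 50, a replicate block, DESeq2 1.42.0, limma-voom (limma 3.58.1), only the 6 libraries compared, and leaving out each library. List counts under these were added after seeing the data. Figures used matplotlib 3.10.9.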

Additional observations from a re-analysis of the deposited data

How the results depend on the processing

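Against control in low glucose, NR5A1 and NR5A2 kept their calls in all 7 other settings and in all 9 fits without a library. With BHB they kept them in the 7 settings but not in every fit without a library. The number of called members ran from 2 to 2 over those fits in low glucose, from 0 to 2 when BHB was added and from 0 to 0 between both low glucose media. All called genes ran from 196 to 391, from 91 to 257 and from 0 to 0, and were 583, 441 and 2 in DESeq2, against 334, 228 and 0 in edgeR. Of the members and other named genes, those that changed sign had passed in no comparison in the edgeR fit of all libraries, though INHA passed in low glucose in DESeq2. In limma-voom, CYP11A1 was at 0.013 between the low glucose media, CYP17A1 at -0.00254 in low glucose, INHA at 0.063 with BHB, and HSD17B1 at 0.77 in low glucose and 1.30 with BHB. Over the fits without a library, CYP11A1 ran from -0.50 to 0.14 and HSD3B1 from -0.48 to 0.30 between the low glucose media, and CYP17A1 from -0.37 to 0.98 there and from -0.70 to 0.68 in low glucose. HSD3B1 ran from -0.086 to 0.69 with BHB, and CYP19A1 from -0.25 to 0.16 in low glucose and -0.11 to 0.36 with BHB. For low glucose and BHB in turn, the ranges were -0.00426 to 0.21 and -0.045 to 0.16 for FDX1, -0.093 to 0.23 and -0.082 to 0.24 for FDXR, -1.59 to 5.63 and -1.82 to 5.54 for HSD17B1, -0.24 to 0.069 and -0.23 to 0.084 for POR, and -0.15 to 0.21 and -0.26 to 0.084 for STARD3. In low glucose, LHCGR ran from -0.48 to 0.042 and POU5F1 from -0.00081 to 0.16. The cause of these changes was not tested. With the replicate number as a block, the called genes were 405 in low glucose, 278 for BHB and 0 between both low glucose media, and the members called were 2, 2 and 0. Under the block, INHBB passed in low glucose (-0.98) and PRKACB with BHB (-0.89), which made 2 genes of its list, while HSD17B1 turned to 0.58 in low glucose and 0.84 with BHB; the block changed no other call among the members and named genes. INHBB passed in both comparisons and LIPA and PRKACB with BHB in DESeq2, and FST in low glucose and INHBB with BHB in fits of 6 libraries. At the level of INHA, HSD17B1 and LHCGR, all under 2 CPM, depth limits what can be seen. Lists other than the members were recounted under all settings after seeing the data.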
